A study of Arabidopsis thaliana with 6 samples.

Results

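The enzymes of glycolysis and of fermentation were described in whole seedlings of Arabidopsis thaliana by the transcripts of 59 listed loci. The list covers 14 enzyme steps, from hexokinase to lactate dehydrogenase, and a locus was counted as measured when the platform annotation pairs a probe set with that gene alone. This held for 18 of the 59 loci, each with 1 such probe set, among 13286 loci measured in this way in all. The other 41 loci are not analysed here, among them hexokinase, the ATP-dependent phosphofructokinases, aldolase and ADH1, 4 steps with no measured locus. The 18 probe sets all carry the plain suffix that the maker uses for probes matching 1 transcript.

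Transcripts were measured on Affymetrix ATH1 arrays in 3 samples of the mutant atsf1-2 and 3 of Col-0, its background accession and control. AtSF1 is a factor of pre-mRNA splicing, and the mutant is in the Col-0 ecotype. Both genotypes grew untreated on MS agar at 23 C, in cycles of 16 h light and 8 h dark, and were harvested after 9 days. The sources used here do not say how the allele was made, how strongly it lowers AtSF1, or how many seedlings made up a sample. The titles call the samples biological replicates without naming separate cultures, so p-values measure the spread between these samples.

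Glycolysis breaks hexose phosphates down to pyruvate in the cytosol, and plants keep a parallel set of many of its enzymes in plastids. Pyruvate then enters the mitochondria through the pyruvate dehydrogenase complex or is fermented, to ethanol by pyruvate decarboxylase and alcohol dehydrogenase, or to lactate by lactate dehydrogenase. Plants ferment when oxygen is short, and genes of fermentation are known to be induced in flooded roots.

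Values are MAS5 signals, intensities on a linear scale that the authors computed per probe set. The trimmed mean of the deposited signals lay between 495 and 496 on every array. Array medians lay between 165 and 181 in atsf1-2 and between 182 and 195 in Col-0. Genotypes were compared on log2 signals with limma over the 13648 probe sets left by a filter on low signals, and a gene was called when its Benjamini-Hochberg adjusted p was under 0.05. The log2 ratio of 3' to 5' signal of the actin control, a sign of RNA integrity, was 3.66 to 4.73 in atsf1-2 and 2.42 to 4.43 in Col-0, with the low value on Col-0 replicate 2. For the GAPDH control it was 0.56 to 0.67 in atsf1-2 and 0.54 to 0.87 in Col-0, with the high value on Col-0 replicate 2, and for ubiquitin 1.26 to 1.49 in atsf1-2 and 1.15 to 1.36 in Col-0. The 3' and 5' probe sets of actin carry different suffixes, neither of them the plain one, which limits what the actin ratio says of integrity. The lowest of limma's array weights were 0.315 for atsf1-2 replicate 3 and 0.535 for Col-0 replicate 2. The labelled tissue was checked on markers of leaf and root, for leaf on the 1 measured gene of 6 listed. The leaf antenna gene LHCB4.1 averaged 16444 ± 511 in atsf1-2 and 14342 ± 457 in Col-0 (SD, n = 3 each), without overlap, and had a log2 fold change of 0.20 ± 0.093 (SE) that did not pass (limma adjusted p = 0.210). The summed signal of 4 measured root markers, of 7 listed, was 17848 to 18528 in atsf1-2 and 16936 to 18918 in Col-0, and none of the 4 passed. Most of that sum is PYK10, with 15723 ± 476 in atsf1-2 and 15809 ± 1072 in Col-0 (SD, n = 3 each). On the log2 scale PYK10 differed by -0.0061, EXPA18 by -0.064 and EXPA7 by -0.028, and the root peroxidase AT5G17820 by 0.44 (atsf1-2 minus Col-0). The peroxidase stood at 1818 ± 114 in atsf1-2 and 1349 ± 184 in Col-0 (SD, n = 3 each; limma adjusted p = 0.0727). The part of these tissue markers in the results was not tested. Markers of seeds and flowers were not analysed here. In whole seedlings, fewer cells of a type and less RNA per cell cannot be told apart.

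Around pyruvate, 3 of 6 tested transcripts rose in atsf1-2, and none of the 9 tested for the preceding steps passed, a split of the pathway made after the values were seen. PDC2, a pyruvate decarboxylase, had 2.01 times the signal of Col-0, and 2 of 4 tested pyruvate kinases rose 1.72-fold and 1.50-fold. The smaller of these rises, that of AT5G63680, passed under 12 of 16 alternatives and not without any 1 of the Col-0 arrays. Of the 15 members that passed the filter, 3 rose and 0 fell by limma, while 3.00% of all tested probe sets rose and 5.19% fell. At an unadjusted p under 0.05, 4 members were higher and 1 was lower, where 26.0% of all tested probe sets passed in either direction. The median log2 fold change was -0.015 over the 15 tested members and -0.070 over all tested probe sets. With each array centred on its own median, the median over all tested probe sets moved by 0.14 to 0.071 and that of the members was 0.13, so values near 0 have no firm sign. The direction of the 3 calls was the same under that scaling and after quantile normalization.

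**Figure D1:**
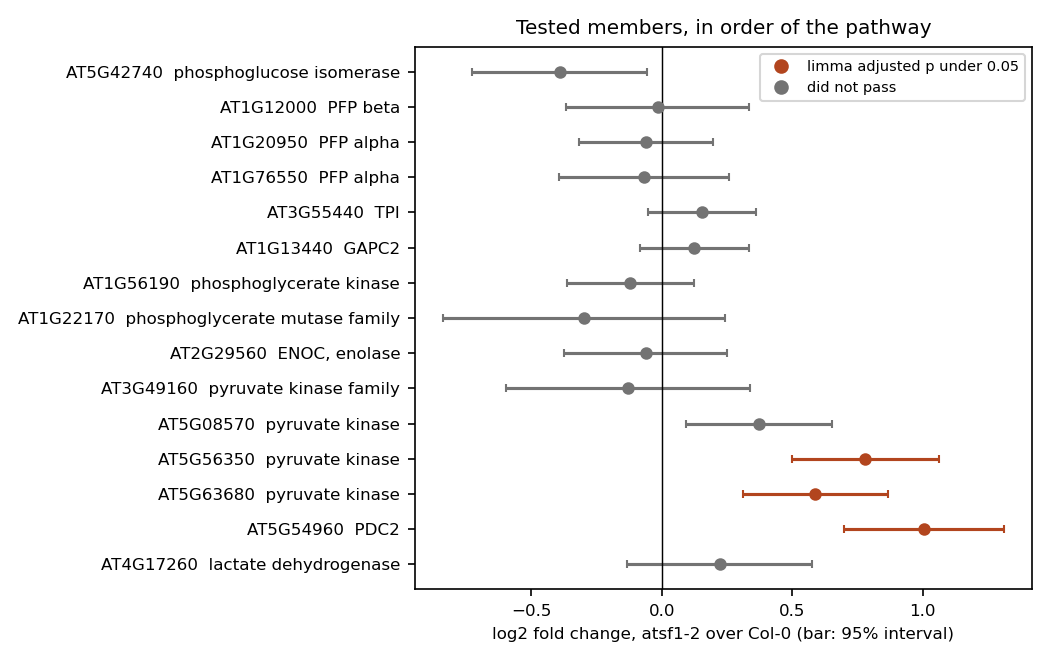
Log2 fold change of atsf1-2 over Col-0 for the 15 tested members, ordered down the page from phosphoglucose isomerase to lactate dehydrogenase, with 95% intervals of limma's fit. The 3 coloured points, 2 pyruvate kinases and PDC2, passed the threshold and lie at 0.59 to 1.01, while the 12 grey points lie between -0.39 and 0.37.

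Phosphoglucose isomerase converts glucose 6-phosphate to fructose 6-phosphate, and the cytosolic enzyme is encoded by AT5G42740. Its signal was 798, 748 and 604 on the arrays of atsf1-2, against 933, 840 and 1040 on those of Col-0. Every mutant array was below every Col-0 array, and the log2 fold change was -0.39 ± 0.15 (SE), which did not pass (limma adjusted p = 0.134). Among the members that passed the filter it had the lowest log2 fold change, and its unadjusted p was 0.0257.

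The next step, from fructose 6-phosphate to fructose 1,6-bisphosphate, was covered by 3 subunit genes of the pyrophosphate-dependent phosphofructokinase PFP. The enzyme works in the cytosol in either direction and has regulatory alpha and catalytic beta subunits. AT1G20950, an alpha subunit, had signals of 1878, 1887 and 1972 in atsf1-2, against 2048, 1860 and 2079 in Col-0. The genotypes overlapped, with a log2 fold change of -0.060 ± 0.12 (SE; adjusted p = 0.782 by limma). The other alpha subunit, AT1G76550, ranged from 814 to 1103 in atsf1-2 and from 952 to 1100 in Col-0. The beta subunit AT1G12000 ranged from 1078 to 1569 in atsf1-2 and from 1240 to 1495 in Col-0. The 95% intervals of the log2 fold changes were -0.32 to 0.20 for AT1G20950, -0.40 to 0.26 for AT1G76550 and -0.37 to 0.34 for AT1G12000. Each holds 0, so with 3 arrays a genotype none of the 3 changes could be told from 0. All 3 log2 fold changes were negative and turned positive with median centring.

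Triose phosphate isomerase and glyceraldehyde-3-phosphate dehydrogenase handle the triose phosphates. The cytosolic isomerase TPI (AT3G55440) had signals of 12172, 12141 and 12665 in atsf1-2, against 11018, 11172 and 11021 in Col-0. GAPC2 (AT1G13440), a cytosolic dehydrogenase that makes NADH in this step, had 17640, 17205 and 18110 in atsf1-2, against 15231, 16369 and 17039 in Col-0. For both genes the mutant arrays were above all Col-0 arrays, by margins that were small beside the signal. Their log2 fold changes were 0.15 ± 0.094 and 0.12 ± 0.095 (SE; adjusted p = 0.325 and 0.442 by limma), and both turned negative after quantile normalization. The arrays also carry control probe sets named GAPDH, whose suffix marks probes that can match several genes. The middle one of them had 11066, 10508 and 10644 in atsf1-2, against 9327, 8756 and 9558 in Col-0, again without overlap. The 3' one overlapped, with 8026 to 9347 in atsf1-2 and 6410 to 9139 in Col-0, and the 5' one had 5354 to 6167 in atsf1-2 and 4138 to 5114 in Col-0. Control probe sets were left out of the fit, and these are values without a test.

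Of the steps between 1,3-bisphosphoglycerate and phosphoenolpyruvate, phosphoglycerate kinase was represented by AT1G56190, an enzyme of the plastid. Its signals were 3056, 3134 and 3059 in atsf1-2, against 3222, 3249 and 3596 in Col-0. The mutant arrays lay below all Col-0 arrays, yet the log2 fold change was -0.12 ± 0.11 (SE; adjusted p = 0.525 by limma) and turned positive with median centring. AT1G22170 belongs to the phosphoglycerate mutase family and was the tested member whose replicates in atsf1-2 spread most, with 211, 295 and 142, against 288, 248 and 230 in Col-0. Its log2 fold change of -0.30 ± 0.25 (SE) did not pass (limma adjusted p = 0.473), and was -0.56 without atsf1-2 replicate 2 and -0.027 without atsf1-2 replicate 3. ENOC (AT2G29560), a cytosolic enolase, which forms phosphoenolpyruvate, had 513, 655 and 595 in atsf1-2, against 588, 630 and 615 in Col-0. Both of these genes overlapped between genotypes. Counted together, the 9 tested members from phosphoglucose isomerase to enolase gave 0 calls by limma, with log2 fold changes from -0.39 to 0.15 and a median of -0.062. Over all tested probe sets 3.00% rose and 5.19% fell, so 0 calls among 9 does not set these steps apart from other genes. At an unadjusted p under 0.05, AT5G42740 alone passed among these 9, where 26.0% of all tested probe sets passed.

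Pyruvate kinase turns phosphoenolpyruvate into pyruvate with a gain of ATP and is a known control point of the pathway in plants. The list holds 14 loci of this family, 7 of them measured and 4 bright enough to be tested. AT5G56350, a cytosolic form, had signals of 1956, 1931 and 1860 in atsf1-2, against 1172, 981 and 1205 in Col-0. The lowest mutant array was thus well above the highest Col-0 array. Its log2 fold change was 0.78 ± 0.13 (SE; adjusted p = 0.00682 by limma), a fold of 1.72 with a 95% interval of 1.41 to 2.09. Among all tested probe sets, 1.37% had a larger rise.

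AT5G63680, another cytosolic form, had 1213, 1301 and 1417 in atsf1-2, against 867, 898 and 846 in Col-0. The genotypes were again apart on every array, with a log2 fold change of 0.59 ± 0.13 (SE; adjusted p = 0.0210 by limma) and a fold of 1.50 (95% interval 1.24 to 1.82). Without Col-0 replicate 1, 2 or 3 the limma adjusted p was 0.0928, 0.0554 or 0.0890, at log2 fold changes of 0.57 to 0.61.

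The third cytosolic form, AT5G08570, had 2172, 2039 and 1865 in atsf1-2, against 1720, 1440 and 1535 in Col-0. All mutant arrays were above all Col-0 arrays, but the log2 fold change of 0.37 ± 0.13 (SE) did not pass (limma adjusted p = 0.0930). It passed with median centring (limma adjusted p = 0.0484) and with array weights (0.0324). AT3G49160, a more distant member of the pyruvate kinase family, had 454, 555 and 352 in atsf1-2, against 378, 616 and 498 in Col-0, which overlap. Its log2 fold change was -0.13 ± 0.21 (SE; adjusted p = 0.743 by limma) and turned positive with median centring.

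The remaining 3 pyruvate kinase loci were dim on all arrays and fell below the filter, whose lowest kept geometric mean was 104.4. AT3G25960 ranged from 9.25 to 52.8 in atsf1-2 and from 19.9 to 55.6 in Col-0. AT3G04050 ranged from 7.18 to 20.7 in atsf1-2 and from 14.8 to 50.6 in Col-0, and AT4G26390 from 12.4 to 20.7 in atsf1-2 and from 15.6 to 17.4 in Col-0. These ranges overlap, and detection calls were not used here, so only low signal can be stated. With no filter, all 18 members were tested and the count that rose was again 3, while 1.17% of all probe sets rose in that fit.

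Pyruvate decarboxylase removes carbon dioxide from pyruvate to give acetaldehyde and commits carbon to ethanol. PDC2 (AT5G54960) is the 1 measured locus of 4 in this family. Its signal was 840, 1011 and 887 in atsf1-2, against 426, 486 and 451 in Col-0. No mutant array came near the Col-0 arrays, and the log2 fold change was 1.01 ± 0.14 (SE; adjusted p = 0.00319 by limma), a fold of 2.01 with a 95% interval of 1.62 to 2.48. It was the largest rise among the tested members, and 0.681% of all tested probe sets rose more. PDC2 stayed past the threshold under all 16 alternatives, with log2 fold changes of 0.93 to 1.15, and AT5G56350 did so too, with 0.69 to 0.92.

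**Figure D2:**
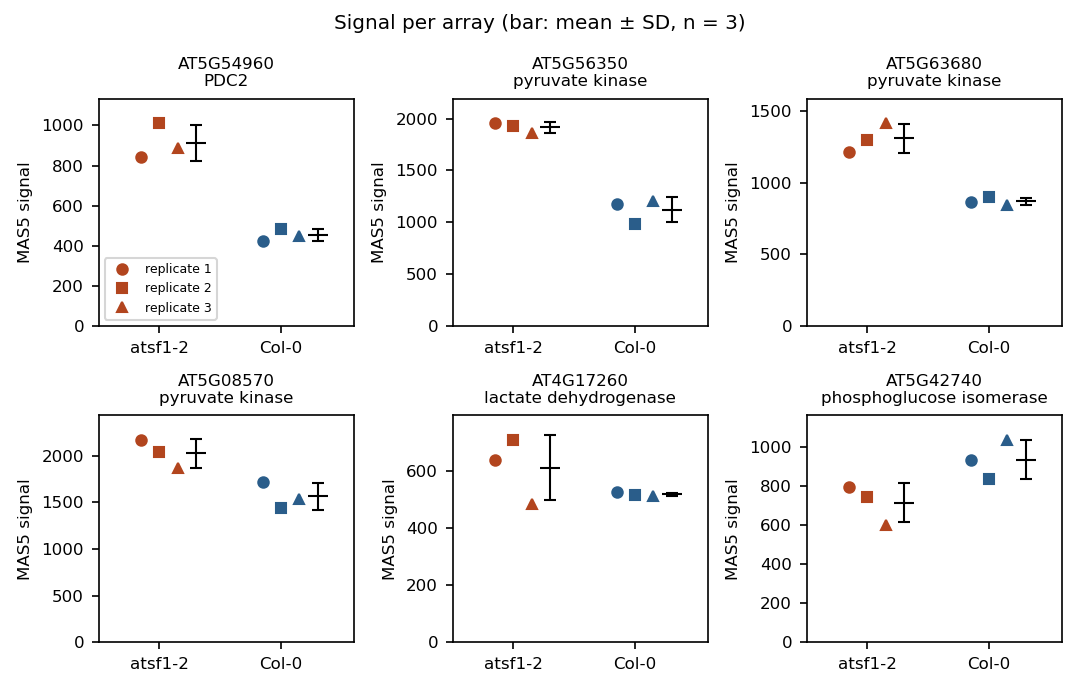
MAS5 signal on each array, with atsf1-2 left of Col-0, for PDC2, 3 pyruvate kinases, lactate dehydrogenase and phosphoglucose isomerase. Symbols mark replicates, and bars give the mean and SD of 3 arrays. PDC2 averaged 913 in atsf1-2 and 454 in Col-0, while lactate dehydrogenase overlapped between genotypes.

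Lactate dehydrogenase takes the other fermentation route from pyruvate. Its single locus, AT4G17260, had 639, 709 and 485 in atsf1-2, against 524, 517 and 511 in Col-0. The mutant arrays lay on both sides of the tight Col-0 values, with a log2 fold change of 0.22 ± 0.16 (SE; adjusted p = 0.417 by limma) and a 95% interval of -0.13 to 0.58. The log2 fold change was 0.38 without atsf1-2 replicate 3 and 0.11 without atsf1-2 replicate 2, and neither passed. The difference between PDC2 and AT4G17260 was taken within each array, where the scaling of arrays cancels. It compares these transcripts and not the routes, since ADH1 of the ethanol route was not measured. The log2 ratio of PDC2 to AT4G17260 was 0.40, 0.51 and 0.87 in atsf1-2, against -0.30, -0.089 and -0.18 in Col-0. The mean difference of 0.78 had an exact permutation p of 0.1, two-sided, which is the smallest that 3 against 3 arrays allow. Within pyruvate kinase, the log2 ratio of AT5G56350 to AT5G08570 was -0.078 ± 0.074 in atsf1-2 and -0.49 ± 0.12 in Col-0 (SD, n = 3 each; exact permutation p = 0.1). That of AT5G63680 to AT5G08570 was -0.63 ± 0.22 in atsf1-2 and -0.84 ± 0.15 in Col-0 (SD, n = 3 each; exact permutation p = 0.2). These 3 ratios were chosen after the values were seen, and Benjamini-Hochberg adjusted p over them was 0.15, 0.15 and 0.2 by the exact permutation test.

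Among the 15 tested members, which leave several steps of the pathway uncovered, the genotypes did not overlap for 8. Signals in atsf1-2 were higher for 6 of these and lower for 2. Among all tested probe sets 31.3% did not overlap, 12.1% with higher and 19.2% with lower signals. Of the 6 higher members, 3 were the called genes and the others were AT5G08570, TPI and GAPC2, so that 3 of the 6 act at the pyruvate kinase step. All 3 members that rose lie on chromosome 5, by their locus names, where 5 of the 18 measured members lie and where AtSF1 itself is encoded. Over all tested single-gene probe sets, 3.54% rose on chromosome 5 and 2.17% to 3.51% on the other chromosomes. These shares cover whole chromosomes, not the region near AtSF1. Whether the position of AtSF1 bears on the 3 rises was not tested.

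**Figure D3:**
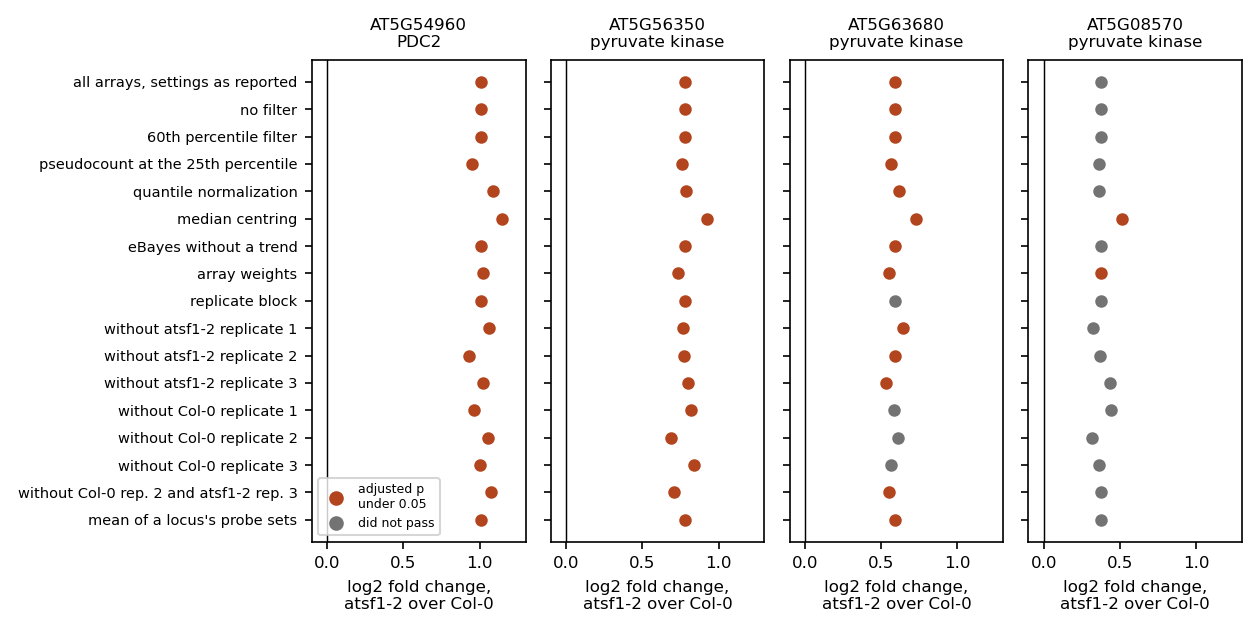
Log2 fold change of atsf1-2 over Col-0 for PDC2 and 3 cytosolic pyruvate kinases under the reported settings and 16 alternatives, 1 line per setting. Coloured points passed the limma threshold. PDC2 and AT5G56350 passed in every line, AT5G63680 in 12 of the 16 alternatives and AT5G08570 in 2. The line of averaged probe sets repeats the reported log2 fold changes, since each gene has 1 probe set.

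The genes around these steps were read from lists of related enzymes. The pyruvate dehydrogenase complex, which competes for pyruvate in mitochondria and plastids, had 6 tested genes of 15 listed. None of the 6 passed in either direction, and their log2 fold changes ran from -0.10 to 0.062. Over all tested probe sets 3.00% rose and 5.19% fell, so 0 calls among 6 does not set the complex apart from other genes. The gene with the smallest p, AT3G13930, an acetyltransferase subunit of the complex, averaged 1449 ± 187 in atsf1-2 and 1551 ± 136 in Col-0 (SD, n = 3 each; limma adjusted p = 0.681). PPDK (AT4G15530), which can turn pyruvate back into phosphoenolpyruvate, was the 1 tested gene of 8 in gluconeogenesis. It averaged 1582 ± 189 in atsf1-2 and 1848 ± 183 in Col-0 (SD, n = 3 each) and did not pass (limma adjusted p = 0.326). ACS (AT5G36880), an acetyl-CoA synthetase that takes up acetate formed from acetaldehyde, was the 1 tested gene of 5 in the side branches of fermentation. Its log2 fold change was 0.071 ± 0.15 (SE; adjusted p = 0.807 by limma). Genes of sucrose breakdown and the plastid GAPDH of the Calvin cycle are not analysed here.

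The list of the low-oxygen response was chosen with earlier results of these data known. Of its 19 genes, a set that holds PDC1 and ADH1 but not PDC2, 8 could be tested. Among these 8, 5 rose and 0 fell, where 3.00% of all tested probe sets rose and 5.19% fell. The median log2 fold change of the 8 was 0.83. AT3G10020, a gene of unknown function, had 3518, 3542 and 3102 in atsf1-2, against 1122, 854 and 1017 in Col-0 (limma adjusted p = 4.87e-05). AT4G10270, annotated as wound-responsive, had 2134, 1792 and 2646 in atsf1-2, against 1174, 1099 and 928 in Col-0, and its log2 fold change was 1.03 ± 0.16 (SE; adjusted p = 0.00547 by limma). For all 5 called genes every mutant array was above every Col-0 array, which their call already makes likely. This held for 12.1% of all tested probe sets, and also for AT2G17850 of the list, which did not pass (limma adjusted p = 0.239). AT2G41730, read by a probe set whose suffix marks probes that can match other transcripts, averaged 606 ± 148 in atsf1-2 and 168 ± 37.1 in Col-0 (SD, n = 3 each; limma adjusted p = 0.00123).

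AT5G10040, a gene of unknown function, had 1627, 1404 and 1607 in atsf1-2, against 969, 825 and 534 in Col-0. Its log2 fold change of 1.03 ± 0.20 (SE; adjusted p = 0.0137 by limma) did not pass without atsf1-2 replicate 1 (limma adjusted p = 0.0581). AT4G33560, also annotated as wound-responsive, averaged 1124 ± 127 in atsf1-2 and 725 ± 105 in Col-0 (SD, n = 3 each), with a log2 fold change of 0.64 ± 0.15 (SE; adjusted p = 0.0314 by limma). The call was lost by eBayes without a trend (limma adjusted p = 0.0501). It was also lost without Col-0 replicate 1, 2 or 3 and without atsf1-2 replicate 1 or 2 (limma adjusted p of 0.0737, 0.0680, 0.133, 0.108 and 0.0571). Without atsf1-2 replicate 1, 3 of the 8 tested low-oxygen genes passed, in a fit where 130 of all 13648 tested probe sets rose, against 409 with all arrays.

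**Figure D4:**
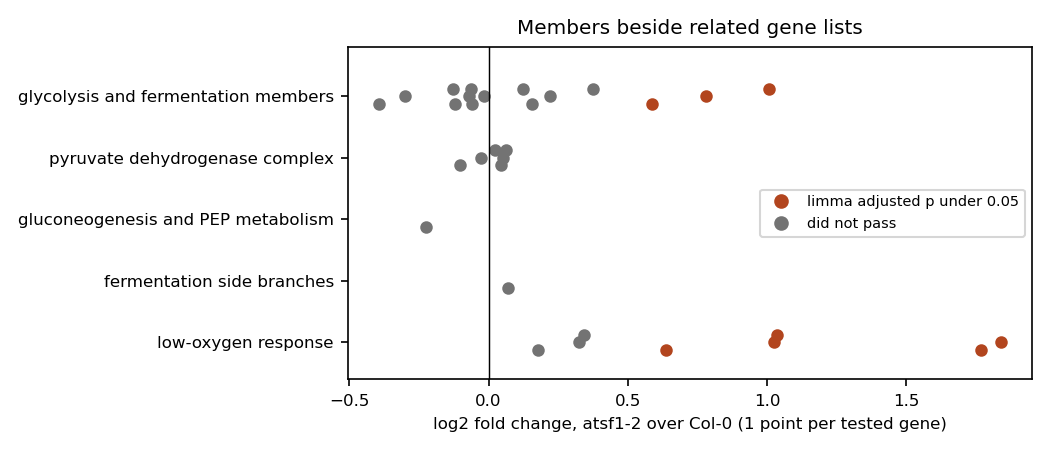
Log2 fold change of atsf1-2 over Col-0 for each tested gene, with 1 row for the glycolysis and fermentation members and 1 for each related list that had a tested gene. Coloured points passed the limma threshold, 3 of 15 among the members, 5 of 8 in the low-oxygen response and none in the other 3 rows. Over all tested probe sets 3.00% rose and 5.19% fell.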

How the data were processed

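The deposited table holds 1 signal intensity per probe set and array, which, per the submitters' processing notes, the authors computed by the MAS5 method (Affymetrix Expression Console 1.2). The sources used here give neither scaling nor detection settings. Of 22810 probe sets, 64 controls were left out. Probe sets pairing with 1 gene (13513) were tied to loci through the RefSeq table of TAIR10.1 (13436 matched), taking the highest mean probe set per locus.

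Signals were taken to log2, kept at or above the 40th percentile of the mean (13648), and compared between genotypes by lmFit and eBayes with a trend (limma 3.58.1, R 4.3.3), two-sided, with Benjamini-Hochberg adjustment over all of them. The fit was run on simulated arrays with known changes and the same spread for all probe sets. This checked the mean of the estimated changes and not the rate of false calls. Members, lists and tests were chosen with earlier results of these data known. Every measured member is named, along with list genes past the threshold or, where none passed, the one with the smallest p. Alternatives were other filters, a pseudocount of 38.3, 2 scalings, eBayes without trend, array weights, a replicate block, averaged probe sets, and left-out arrays. Those for the related lists were added after seeing the data. The number of arrays limits precision.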

Additional observations from a re-analysis of the deposited data

How the results depend on the processing

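PDC2 and AT5G56350 passed under all 16 alternatives, and no called member changed sign. Averaged probe sets could not change a member's log2 fold change, since each member has 1 probe set. The other filters, eBayes without a trend and the replicate block also leave it as it was, so under these its sign was fixed. The members that rose numbered 2 to 4 under every alternative, and 0 fell. AT5G63680 lost its call without any 1 Col-0 array and with the replicate block (log2 fold change 0.59, limma adjusted p = 0.0670). The block also ended the call of AT4G33560 (0.64, limma adjusted p = 0.0543). Same-numbered arrays correlated in their deviations at 0.10, -0.19 and -0.21, so the numbers do not show pairing. The median of the members was 0.13 with median centring, 0.11 without Col-0 replicate 2 and atsf1-2 replicate 3 together, and -0.051 to 0.11 without single arrays. Over all probe sets, 267 rose and 439 fell with no filter, 755 and 362 with median centring, 947 and 1713 with array weights, and 171 and 263 with the block, while 271 rose by eBayes without a trend. Without single arrays 130 to 463 rose and 151 to 777 fell. The lower share of calls was 63.4%, against 51.4% after quantile normalization and 32.4% with median centring. Of the related lists, 3 to 5 genes rose without single arrays. Among genes that did not pass, quantile normalization turned the log2 fold changes of TPI (-0.014), GAPC2 (-0.072) and ENOC (0.038). Median centring turned AT1G12000 (0.13), AT1G20950 (0.081), AT1G76550 (0.072), AT1G56190 (0.020), ENOC (0.079), AT3G49160 (0.012) and AT3G13930 (0.038). Array weights turned AT1G12000 (0.062), AT3G49160 (0.076) and AT5G36880 (-0.021). Leaving out both arrays of low weight turned AT1G12000 (0.078), AT1G76550 (0.055), AT3G49160 (0.21) and AT5G36880 (-0.027). Without single arrays the values ran from -0.12 to 0.15 for AT1G12000, -0.16 to 0.059 for AT1G76550, -0.14 to 0.032 for ENOC, -0.31 to 0.042 for AT3G49160 and -0.067 to 0.18 for AT5G36880. For all of these the cause was not tested.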
